A study of Zea mays with 6 samples.

Results

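Sucrose made in the leaf is loaded into the phloem for export and is cleaved where it is used. The genes described are 4 maize genes of sucrose export and 5 of sucrose cleavage, picked by their B73 RefGen_v4 identifiers. They make up 9 of the 44146 genes listed for each library. The exporters were sut1 (Zm00001d027854) and the SWEET13 copies sweet13a (Zm00001d023677), sweet13b (Zm00001d023673) and sweet13c (Zm00001d041067). The cleavage genes were the sucrose synthase genes sh1 (Zm00001d045042), sus1 (Zm00001d047253) and sus2 (Zm00001d029091) and the invertase genes mn1 (Zm00001d003776) and ivr2 (Zm00001d025355). RNA came from maize (Zea mays) shoots, sampled at the 3-leaf stage without roots, untreated and grown under normal conditions. The groups were the wild type (WT) and 1 line, KO1, whose gene for Gβ, a subunit of the heterotrimeric G protein that passes on signals from the cell surface, was knocked out. Each group had 3 libraries, named biological replicates. Each library was sequenced as 150 bp paired-end reads and gave 1 FPKM value per gene (fragments per kilobase, scaled between libraries). The sources used here do not give the mutation, its parent line or the number of plants in a library, and with a single knockout line the loss of Gβ and other differences of that line cannot be told apart.

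In maize, as in other plants that load sucrose from the cell wall space, sucrose leaves the cells beside the veins through SWEET proteins, which let sugar pass down its gradient, and is then taken into the phloem by SUT1, which couples sucrose uptake to protons. Sucrose synthases cleave sucrose reversibly to UDP-glucose and fructose, and invertases split it irreversibly to glucose and fructose. In maize, sh1 (shrunken1) and mn1 (miniature1) are known chiefly from the kernel, where their loss reduces starch or seed size, and sus1 is widely expressed.

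The 6 libraries held 14758012 to 17666150 reads as worked back from the FPKM values. Wild-type replicate 3 and knockout replicate 2 stood apart from the rest of their groups on the second principal component of the 23232 tested genes (20.1% of the variance), at 83.8 and 37.8, against -48.6 to -11.6 for the other 4 libraries. Fold changes of the tested genes and the SWEET13, exporter and cleavage sums are given with and without them, in the text or in a figure. These libraries were set apart by the same values that are tested, and leaving them out keeps the most alike pair of each group. Intervals and p-values from fits without them therefore tend to understate the spread between replicates and are given as a description. The identifiers carry no names in the files, and 0 of the 44146 matched the reference table, so the gene names are those of the selection. The level of the Gβ gene, markers of leaf cell types and other genes of the pathway were not analysed here for that reason. The pairing of Zm00001d025355 with ivr2 is doubtful. Numbers of these identifiers run along 1 chromosome after another, and this number does not belong to the chromosome on which RefSeq places ivr2. Its values are therefore not taken as the level of that invertase.

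Genes that passed the test came from both export and cleavage, and so did genes that did not pass. Of the 7 genes expressed highly enough to test, 4 rose in the knockout: the efflux genes sweet13a and sweet13c and the sucrose synthase genes sh1 and sus2, by 3.87 to 5.17-fold on the scale of log2(FPKM + 1). None of the 7 fell in the test. The most abundant of them, sus1, averaged 465 FPKM in the wild type and 207 FPKM in the knockout but did not pass, and neither did sut1 or sweet13b. In whole shoots, a different number of cells of a type and a different amount of RNA per cell cannot be told apart, and several of these genes are tied to veins or growing tissue. Across all genes, 31.2% of the tested genes passed (limma, Benjamini-Hochberg adjusted p below 0.05), 15.2% as higher and 16.0% as lower in the knockout, and a rise of at least 4-fold, reached by 3 of the 7 genes, was called in 4.28%. The genotypes were without overlap for 4 of the 7 genes and for 49.4% of all tested genes. The median log2 fold change of the 7 genes was 1.95, and that of all tested genes was 0.020. These counts come from genes chosen with earlier results of these data known and are a description.

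**Figure D1:**
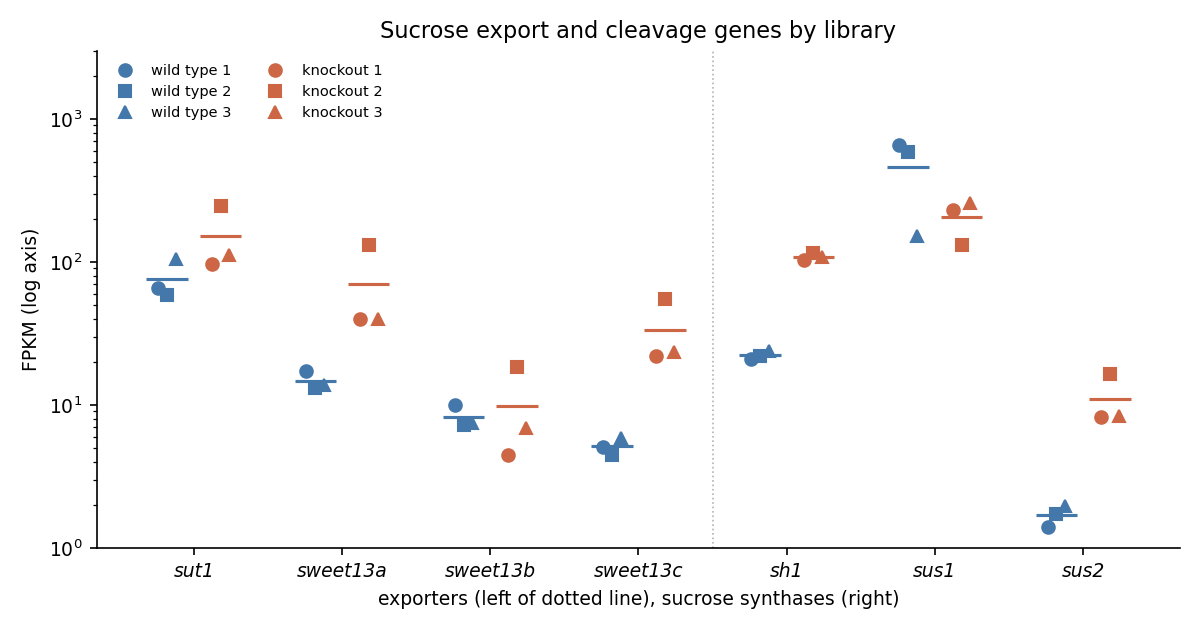
FPKM (log axis) of the 7 tested genes in each of the 6 libraries, wild type in blue and knockout in orange, with the replicate number as the symbol and the group mean as a line. All knockout libraries lie above all wild-type libraries for sweet13a, sweet13c, sh1 and sus2, and the groups overlap for sut1, sweet13b and sus1.

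The SWEET13 genes, which release sucrose next to the vein, differed among themselves. For sweet13a the wild-type libraries gave 17.2, 13.1 and 13.7 FPKM and the knockout libraries 39.7, 131 and 39.6 FPKM in replicates 1, 2 and 3. Every knockout library was above every wild-type library, as for 25.0% of all tested genes, and knockout replicate 2 was more than 3 times as high as the other knockout libraries. The means were 14.7 ± 2.23 and 70.2 ± 53.0 FPKM (SD, n = 3 each), and the log2 fold change was 1.95 ± 0.48 (SE; limma adjusted p = 0.024). The call was lost without wild-type replicate 1 (limma adjusted p = 0.062) or wild-type replicate 2 (limma adjusted p = 0.073). With wild-type replicate 3 and knockout replicate 2 left out, the log2 fold change was 1.34 (limma adjusted p = 0.0013, 51.4% of all genes called in that fit). The ratio of mean FPKM was then 2.62 in place of 4.79.

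For sweet13c, a copy at another place in the identifier order, the values were 5.09, 4.43 and 5.88 FPKM in the wild type and 21.9, 54.9 and 23.6 FPKM in the knockout. The groups did not overlap, and knockout replicate 2 was again the highest. The means were 5.14 ± 0.73 and 33.4 ± 18.6 FPKM (SD, n = 3 each). The log2 fold change of 2.37 ± 0.36 was the largest among the 7 genes in the main fit (SE; limma adjusted p = 0.0045). This rank depended on the setting. With wild-type replicate 3 and knockout replicate 2 left out, sh1 was higher (2.24 against 2.04), and with voom, a fit on reads, sus2 was higher (2.64 against 2.58). For sweet13c the ratio of means was 6.51 with all libraries and 4.77 with wild-type replicate 3 and knockout replicate 2 left out.

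The third copy, sweet13b, gave 10.04, 7.22 and 7.48 FPKM in the wild type and 4.44, 18.3 and 6.86 FPKM in the knockout. Knockout replicates 1 and 3 lay below all wild-type libraries, and knockout replicate 2 lay above them all. The log2 fold change was 0.035, with a 95% interval of -1.08 to 1.15 (limma adjusted p = 0.96), a range that holds both a fall and a rise of about 2-fold. Its sign was not settled: it was 0.039 after median-ratio rescaling and 0.22 after scaling by total reads, -0.016 after quantile normalization, and -0.026 with voom, which also weights the reads differently. Without wild-type replicate 3 and knockout replicate 2 it was -0.54 (limma adjusted p = 0.11).

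In the knockout the shares of the copies in the SWEET13 transcript varied less between libraries than their levels. The share of sweet13b was 31.0%, 29.2% and 27.7% of the summed SWEET13 FPKM in wild-type replicates 1, 2 and 3, and 6.73%, 8.97% and 9.79% in the knockout replicates. The share of sweet13c went from 18.5 ± 3.05% to 31.2 ± 3.82% and that of sweet13a from 52.2 ± 1.44% to 60.3 ± 3.85% (SD, n = 3 each). All 3 shares were without overlap between the genotypes, but they add up to the whole in each library and so are not 3 separate results. Levels of single genes were without overlap for 49.4% of all tested genes. The ratio of sweet13a to sweet13b was 1.71 to 1.83 in the wild type and 5.78 to 8.94 in the knockout, and that of sweet13c to sweet13b was 0.51 to 0.79 and 2.99 to 4.92. Each of these ratios gave p = 0.1 in an exact two-sided permutation test, and 3 against 3 libraries allow no smaller value (0.133 after Benjamini-Hochberg adjustment over the 4 ratios between members compared, which were chosen after the values were seen). The ratio of sweet13a to sweet13c was 2.32 to 3.38 in the wild type and 1.68 to 2.40 in the knockout, with overlap (exact two-sided permutation p = 0.2, adjusted 0.2). The SWEET13 genes are close copies, so reads may have been divided among them in ways these files do not show, and each single level carries that uncertainty. Their sum depends less on that division, though the copies differ in length and reads may also have been dropped or counted more than once. It was 32.4, 24.7 and 27.0 FPKM in the wild type and 66.0, 205 and 70.1 FPKM in the knockout. With the 3 copies summed to 1 gene before fitting, the log2 fold change was 1.78 (limma adjusted p = 0.027). The log2 difference of the sums was 1.82 with all libraries and 1.27 with wild-type replicate 3 and knockout replicate 2 left out.

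**Figure D2:**
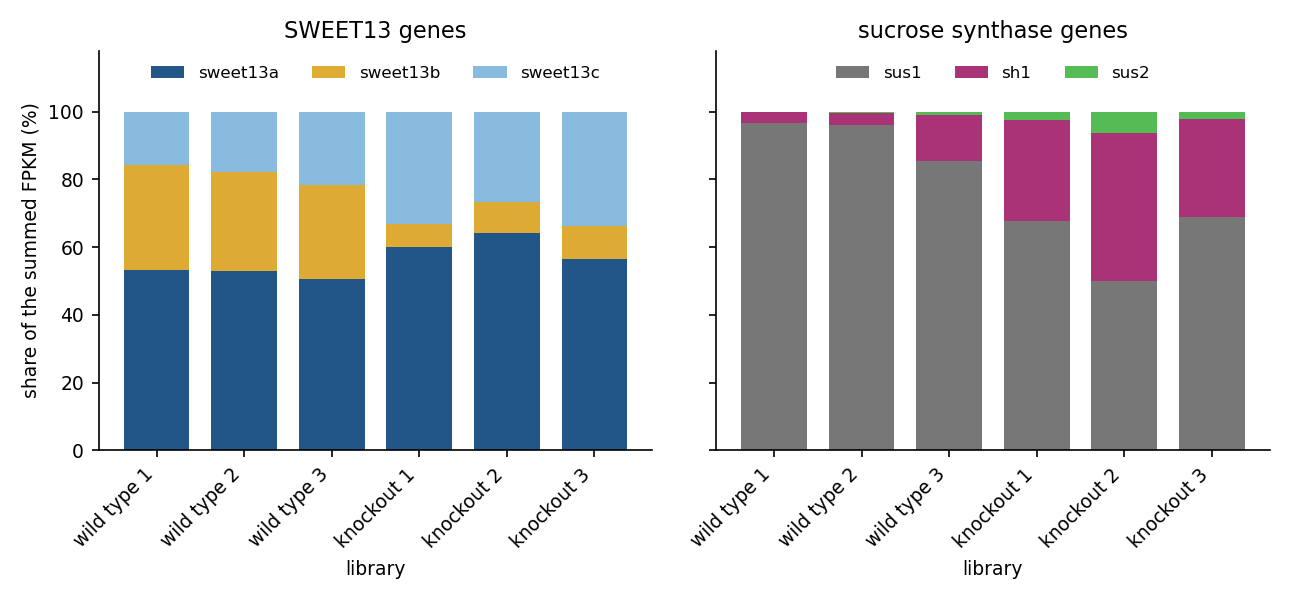
Share (%) of each copy in the summed FPKM of the SWEET13 genes (left) and of the sucrose synthase genes (right), 1 stacked bar per library. The sweet13b share is 27.7% to 31.0% in the wild type and 6.73% to 9.79% in the knockout, and the sh1 share is 3.09% to 13.5% in the wild type and 28.7% to 43.7% in the knockout.

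The phloem loader sut1 was the most abundant exporter in every library. It gave 65.6, 58.8 and 105 FPKM in the wild type and 96.6, 248 and 111 FPKM in the knockout. The groups overlapped, since wild-type replicate 3 was above knockout replicate 1. The means were 76.3 ± 24.7 and 152 ± 83.4 FPKM (SD, n = 3 each), and the log2 fold change was 0.90 with a 95% interval of -0.12 to 1.91 (limma adjusted p = 0.16). Without wild-type replicate 3 and knockout replicate 2 it was 0.73 with an interval of 0.40 to 1.06 and passed (limma adjusted p = 0.0065, 51.4% of all genes called in that fit). It also passed after quantile normalization (limma adjusted p = 0.045) and after scaling by the total of worked-back reads (limma adjusted p = 0.048). Under the latter scaling the median log2 fold change over all genes was 0.21. With any single library left out sut1 did not pass. Its log2 fold change was 0.48 without knockout replicate 2 (limma adjusted p = 0.28) and 1.15 without wild-type replicate 3 (limma adjusted p = 0.084). Since the SWEET13 sum differed more than sut1, the share of sut1 in the summed exporter FPKM was 67.0% to 79.5% in the wild type and 54.8% to 61.3% in the knockout, without overlap.

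Among the sucrose synthases, sh1 had the smallest coefficient of variation among the 7 tested genes in both genotypes. It gave 21.0, 22.0 and 23.9 FPKM in the wild type and 103, 115 and 108 FPKM in the knockout. The libraries of a genotype lay close together, wild-type replicate 3 and knockout replicate 2 included, and the groups were far apart. The means were 22.3 ± 1.49 and 108 ± 6.03 FPKM (SD, n = 3 each; coefficients of variation 6.66% and 5.57%), and the log2 fold change was 2.23 ± 0.15 (SE; limma adjusted p = 0.00033). It stayed between 2.05 and 2.46 under the 19 alternatives, always past the threshold (highest limma adjusted p = 0.0073).

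The second sucrose synthase gene that rose, sus2, was the least abundant of the 7 genes in the wild type. It gave 1.40, 1.73 and 1.97 FPKM in the wild type and 8.20, 16.6 and 8.40 FPKM in the knockout. The groups did not overlap, and knockout replicate 2 was about 2 times as high as the other knockout libraries. The means were 1.70 ± 0.29 and 11.1 ± 4.77 FPKM (SD, n = 3 each), a ratio of 6.50 (5.30 with wild-type replicate 3 and knockout replicate 2 left out) that the log2 fold change of 2.10 ± 0.29 on the log2(FPKM + 1) scale understates (SE; limma adjusted p = 0.0032). The wild-type level rested on 92 to 124 reads per library and the knockout level on 701 to 1199 reads.

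The most abundant of the 3 sucrose synthase genes, sus1, gave 657, 585 and 151 FPKM in the wild type and 231, 131 and 259 FPKM in the knockout. Wild-type replicates 1 and 2 were above all knockout libraries, while wild-type replicate 3 fell inside the knockout range. The means were 465 ± 274 and 207 ± 67.1 FPKM (SD, n = 3 each), and the log2 fold change was -0.96 with a 95% interval of -2.46 to 0.54 (limma adjusted p = 0.28). Wild-type replicate 3 decided this. Without it the log2 fold change was -1.64 (limma adjusted p = 0.015, 37.1% of all genes called in that fit). Without it and knockout replicate 2 it was -1.34 (limma adjusted p = 0.0011, 51.4% of all genes called in that fit). The libraries left out were those that stood apart on the second component. In both genotypes the library that stood apart on the second component was the lowest of its group for sus1 and the highest for sut1, sweet13c, sh1 and sus2. For sweet13a and sweet13b it was the highest in the knockout only. Over all tested genes, wild-type replicate 3 was the highest of its group for 45.8% and the lowest for 39.1%. Knockout replicate 2 was the highest for 43.5% and the lowest for 39.3%. What sets these libraries apart was not tested. The sus1 levels rested on 9717 to 44236 reads per library.

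The makeup of the summed transcript of the 3 sucrose synthase genes differed between the genotypes in all libraries. The share of sus1 in the summed FPKM of the 3 genes was 96.7%, 96.1% and 85.4% in the wild type and 67.6%, 50.0% and 69.0% in the knockout. The share of sh1 was 3.09%, 3.62% and 13.5% in the wild type and 30.0%, 43.7% and 28.7% in the knockout. The ratio of sus1 to sh1 was thus 31.3, 26.6 and 6.33 in the wild type and 2.25, 1.14 and 2.40 in the knockout, without overlap although sus1 alone overlapped (exact two-sided permutation p = 0.1, the smallest possible; adjusted 0.133). Wild-type replicate 3 lay nearest to the knockout in each of these measures. Its sus1 level (151 FPKM) was below those of knockout replicates 1 and 3 (231 and 259 FPKM), so its distance from them in the ratio came from sh1. Since sh1 alone was already without overlap, the ratio is not a result separate from sh1. The summed sucrose synthase FPKM was 680, 609 and 177 in the wild type and 342, 262 and 375 in the knockout, and the groups overlapped through wild-type replicate 3.

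**Figure D3:**
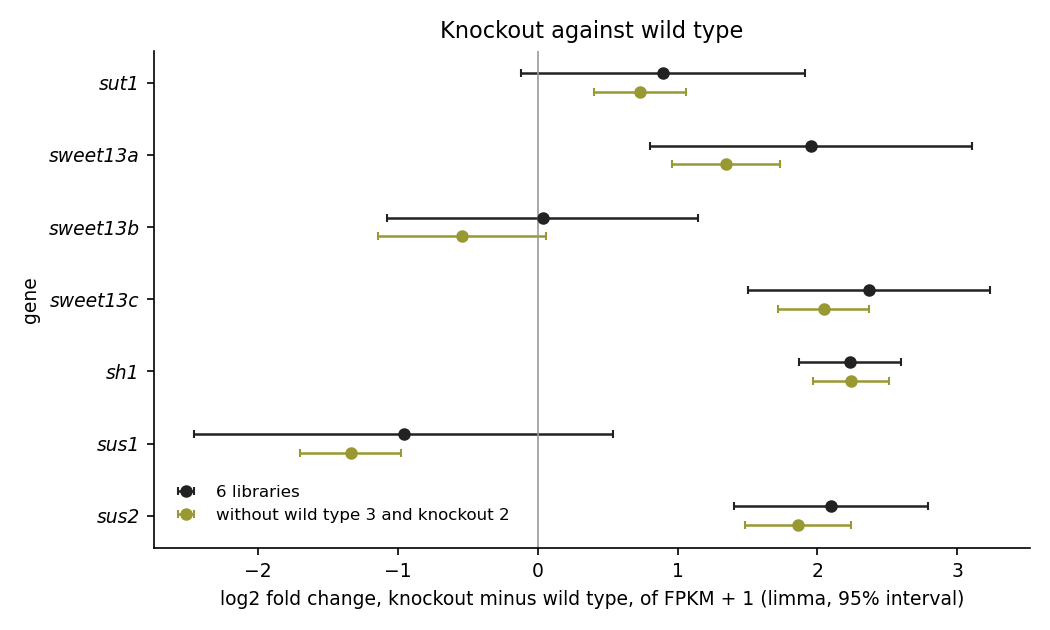
Log2 fold change of FPKM + 1, knockout minus wild type, for the 7 tested genes, with 95% intervals from limma, for all 6 libraries (black) and with wild-type replicate 3 and knockout replicate 2 left out (olive). The intervals of sut1 and sus1 include 0 with 6 libraries and not without those libraries, and that of sweet13b includes 0 in both. Intervals without those libraries tend to understate the spread between replicates.

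The invertase gene mn1 was near 0. For this gene, which encodes an invertase of the cell wall, the wild-type libraries had 0, 1 and 0 reads and the knockout libraries 5, 8 and 29 reads, or 0.134, 0.272 and 0.855 FPKM in knockout replicates 1, 2 and 3. Every knockout library was above every wild-type library, but no library reached 1 FPKM and mn1 was left out of the test. Pooled over libraries and scaled, the ratio of its reads was 34.0 with a 95% exact binomial interval of 5.77 to 1373, which covers counting error only. The wild-type side of this ratio is 1 read, and knockout replicate 3 holds 29 of the 42 knockout reads. Without that library, a choice made after seeing the data, the ratio was 15.9 (2.38 to 674). Without the filter on low values mn1 did not pass (limma adjusted p = 0.13). Zm00001d025355 was listed at 0 in 5 libraries and had 1 read in knockout replicate 3.

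The order of the transcript levels changed with genotype. In the wild type the order by mean FPKM was sus1, sut1, sh1, sweet13a, sweet13b, sweet13c and sus2, and no neighbours in this order overlapped across the 3 libraries. In the knockout it was sus1, sut1, sh1, sweet13a, sweet13c, sus2 and sweet13b, and among neighbours only sweet13c and sus2 were without overlap. This order rests in part on knockout replicate 2, in which sut1 (248 FPKM) was above sus1 (131 FPKM), sweet13a (131 FPKM) above sh1 (115 FPKM) and sweet13b (18.3 FPKM) above sus2 (16.6 FPKM). In the mean of knockout replicates 1 and 3, sh1 (105 FPKM) and sut1 (104 FPKM) changed places. Among the 23232 tested genes, sweet13c went from above 33.2% of genes in the wild type to above 85.5% in the knockout, sus2 from 12.3% to 56.7%, sweet13a from 63.7% to 94.1% and sh1 from 74.7% to 96.5%. The position of sus1 was 99.4% and 98.5%, and that of sut1 93.3% and 97.8%.

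Set side by side, the summed exporter FPKM was 97.9, 83.5 and 132 in the wild type and 163, 452 and 181 in the knockout. The cleavage sum was 680, 609 and 177 FPKM in the wild type and 342, 263 and 376 FPKM in the knockout. The doubtful identifier Zm00001d025355, kept in this sum, added 0.058 FPKM in knockout replicate 3 and 0 in every other library. Exporter transcript was higher in every knockout library than in any wild-type library, whereas the cleavage sums overlapped. The ratio of the exporter sum to the cleavage sum was 0.144, 0.137 and 0.742 in the wild type and 0.475, 1.72 and 0.482 in the knockout. Wild-type replicate 3 was above knockout replicates 1 and 3 in this ratio, so the groups overlapped. The log2 difference, knockout minus wild type, was 1.21 for the exporter sum, -0.37 for the cleavage sum and 1.58 for their ratio. With wild-type replicate 3 and knockout replicate 2 left out, these were 0.92, -0.84 and 1.77. The value for the ratio was 0.97 without knockout replicate 2 alone and 2.38 without wild-type replicate 3 alone. Sums over the chosen genes are given without a test, and they mostly follow their most abundant genes, neither of which passed. The gene sut1 held 54.8% to 79.5% of the exporter FPKM, and sus1 held 50.0% to 96.7% of the sucrose synthase FPKM. By gene, the median log2 fold change was 1.43 over the exporters and 2.10 over the tested cleavage genes. Among the latter sh1 and sus2 rose, so the cleavage sum does not stand for each of its genes.

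**Figure D4:**
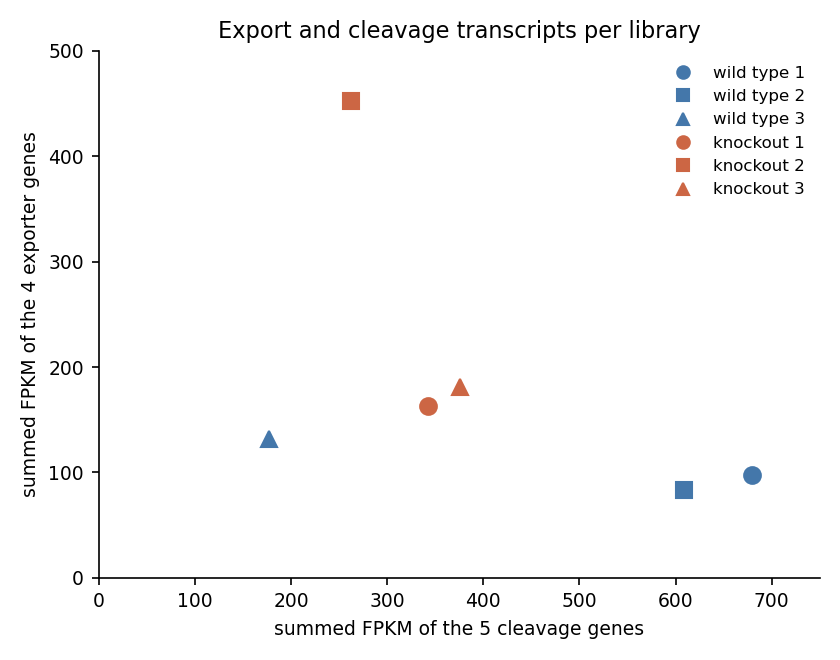
Summed FPKM of the 4 exporter genes against summed FPKM of the 5 cleavage genes (Zm00001d025355 included), 1 point per library. The wild-type exporter sums are 83.5 to 132 and the knockout sums 163 to 452, while on the cleavage axis wild-type replicate 3 (177) lies below all knockout libraries and the other wild-type libraries (609 and 680) above them.

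Across the 6 libraries the genes that rose were alike in pattern, a likeness that includes the difference between genotypes. On log2(FPKM + 1) the closest pair was sweet13c with sus2 (Pearson r = 0.99, n = 6 libraries), an exporter with a cleavage gene, followed by sweet13a with sweet13c (r = 0.97) and sh1 with sus2 (r = 0.97). The level of sut1 was closest to that of sweet13a (r = 0.89) and went against that of sus1 (r = -0.86). The level of sweet13b had little in common with that of sh1 (r = 0.06) and was closest to that of sut1 (r = 0.61). Knockout replicate 2 was the highest knockout library for 6 of the 7 genes, all but sus1, as for 43.5% of all tested genes. These values describe libraries that fall into 2 groups and carry no test.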

How the data were processed

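RNA was measured in 3 wild-type and 3 Gβ knockout libraries. The authors deposited 1 table of FPKM values per library; no header names the unit, which was taken from the submitters' processing notes (TopHat2, Cufflinks, Cuffdiff, build B73 RefGen_v4) and from the values. Their versions, annotation, filters, strand setting and handling of multiply mapped reads are not stated in these sources. Groups and replicate numbers came from the sample titles. Replicates differed by more than sampling noise (mean chi-square per gene 10.2 to 125, expectation 1).

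Whole reads were worked back from the FPKM steps (100% of 30066 genes above 0 in several libraries gave whole multiples within 0.002). They give the depth of 14758012 to 17666150 reads or read pairs per library. The test took the genes that reached 1 FPKM in 3 or more libraries and used limma 3.58.1 in R 4.3.3 on log2(FPKM + 1) (genotype as the term, two-sided, robust empirical Bayes with a mean trend), with p adjusted over all 23232 genes. The same fit was also run on simulated data, whose outcome is not given here. Ratios of single genes were compared by exact permutation tests; Python 3.11.15 was used. All 9 members are named, by rule. The members, lists and tests were chosen with earlier results of these data known. Planned leaf markers and the wider pathway list were not run, since the identifiers are not paired with names; 6 of the 9 member names occur in the RefSeq table, without these identifiers. No protein or promoter sequence was used here. Intervals on reads cover counting error only. Alternatives covered the pseudocount, filter, scaling, variance model, library weights, voom, a replicate block, libraries left out and SWEET13 copies summed.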

Additional observations from a re-analysis of the deposited data

How the results depend on the processing

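Under 18 or 19 alternatives each, sh1, sus2 and sweet13c kept their direction and an adjusted p below 0.05 (highest 0.0073, 0.018 and 0.022 with limma). The call of sweet13a was lost without wild-type replicate 1 or 2, and its log2 fold change ranged from 1.30 to 2.24. That of sus1 ranged from -1.64 to -0.58 and passed with wild-type replicate 3 left out alone (-1.64) or with knockout replicate 2 (-1.34), and with library weights (-1.32). That of sut1 ranged from 0.48 to 1.19 and passed with quantile normalization (1.19), scaling by total reads (1.11), library weights (0.77) and both of those libraries left out (0.73). That of sweet13b (0.035) turned negative with quantile normalization (-0.016), voom (-0.026), library weights (-0.44) and both libraries left out (-0.54), and lay between -0.49 and 0.43 without single libraries; the cause was not tested. Between 3 and 6 of the 7 genes were called. Over all genes, 7238 were called, 14976 with library weights, 11952 with both libraries left out, and 4212 to 8614 with each library left out in turn. With a replicate block 4579 genes were called, and no call among the 7 genes changed (sweet13a, limma adjusted p = 0.047). Deviations of same-numbered libraries correlated at 0.15, -0.37 and -0.20. These values show no pairing by number. With 3 libraries per group, each centred on its group mean, they cannot exclude one. Scaling by total reads shifted the split of calls from 48.8% to 61.7% higher in the knockout. The log2 difference of the exporter sums stayed between 0.74 and 1.48 and that of the cleavage sums between -0.99 and -0.024. The shares and the ratio of sums were recomputed with libraries left out, a choice made after seeing the data. The log2 difference of the ratio of sums then ranged from 0.97 to 2.38. The level of mn1, below 1 FPKM in every library, rested on 0 to 29 reads.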
